A study of Homo sapiens with 10 samples.

Results

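The HS2 enhancer of the β-globin locus control region was perturbed in K562 erythroleukemia cells with enCRISPRi-KL, and the transcriptome was compared with that of cells carrying the nontargeting guide sgGal4. enCRISPRi-KL (KL) combines dCas9 fused to the KRAB repressor domain with MCP fused to the histone demethylase LSD1, and MS2 hairpins on the guide RNA bring in the MCP fusion. The comparison uses 4 of the 10 libraries of the study, 2 labelled KL with HS2 guides and 2 labelled sgGal4. The other 6 libraries come from K562 cells with HS2 guides and dCas9-KRAB alone (K), dCas9-LSD1 alone (L) or dCas9-LSD1 with MCP-KRAB (LK), 2 libraries each. All HS2 groups received the 4 HS2 guides together, in lentivirally transduced K562 cells that were sorted by fluorescence and induced with doxycycline. The labels do not say which effectors the sgGal4 cells carried, so an effect of the guides and an effect of the effectors cannot be told apart in KL against sgGal4. TPM (a transcript level scaled for length and library) was available for 20535 genes, and the 10127 whose mean over the 10 libraries reached 1 TPM are the members here. Differences are on the log2(TPM + 1) scale throughout, and a gene was called when its adjusted p was under 0.05.

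Red cells build hemoglobin from α-like and β-like chains, and the β-like genes HBE1 (embryonic), HBG2 and HBG1 (fetal), HBD and HBB (adult) lie in that order on chromosome 11 downstream of the locus control region that contains HS2. K562 cells express the embryonic and fetal genes and little HBB. KRAB recruits the corepressor TRIM28 and with it histone H3 lysine 9 methylation, while LSD1 removes methyl groups from histone H3 lysine 4 at enhancers.

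The libraries labelled KL had far lower HBE1 and HBG2 than the sgGal4 libraries, to 25.0% and 28.4% of their level, but most of the genes that differed were not globins. Among the 10127 genes tested, 138 were called (1.36%), 64 higher in the libraries labelled KL (0.632%) and 74 lower (0.731%). An unadjusted p under 0.05 was found for 1492 of the 10127. Counts for the gene lists below are to be read beside these values. By p, the rise of ZNF10 came first, followed by the falls of HBE1 and HBG2. Besides the globins, the called genes included enzymes of sterol synthesis and ATF4 stress effectors on the lower side, and ARHGDIB, ETS1 and SPARC on the higher side. With mitochondrially encoded genes removed and the rest rescaled, 202 genes were called, 65 higher and 137 lower, so the share of higher calls was 32.2% instead of 46.4%. The count depended on single libraries and stood at 49 without KL replicate 2, 67 without KL replicate 1, 83 without sgGal4 replicate 1 and 167 without sgGal4 replicate 2. Of the 138 genes, 36 were called whichever 1 of the 10 libraries was left out, 12 higher and 24 lower, and the text below gives most room to these. The 12 include SLC18A2 and SCRT2, which reached a mean of 1 TPM only through the KL libraries, so their stability is no independent result. The labels do not say that replicates came from separate cultures, so p-values measure only the spread between these libraries, which may be technical. An exact permutation test of 2 against 2 libraries cannot go below p = 0.333.

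**Figure D1:**
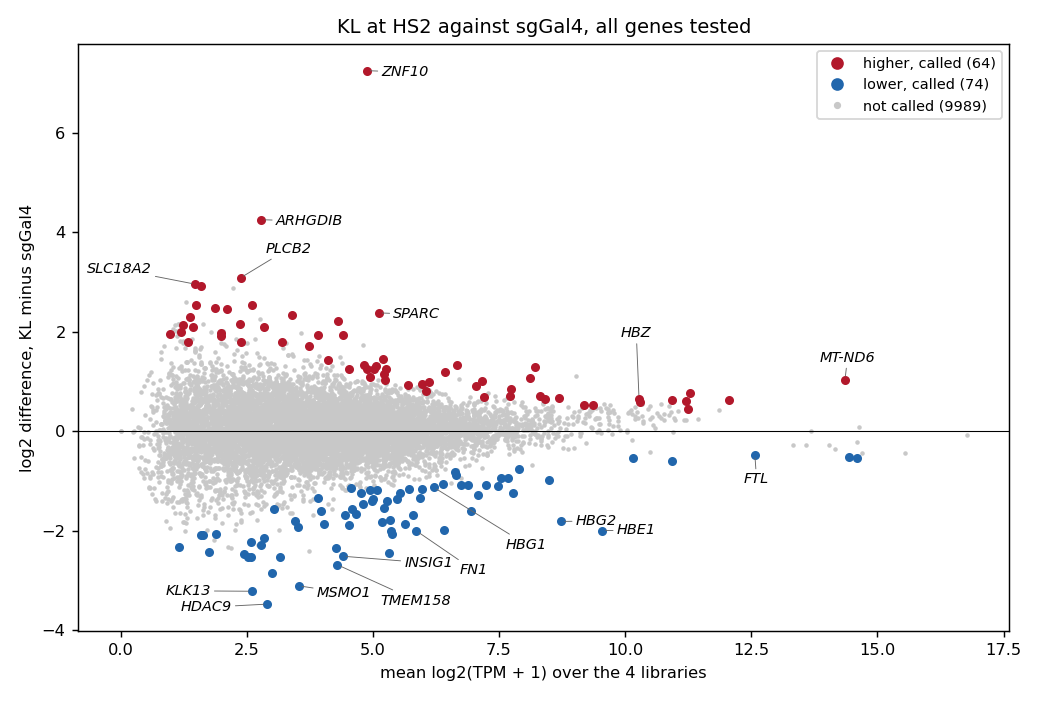
Difference between the libraries labelled KL and sgGal4 (log2(TPM + 1), y axis) against the mean level of each of the 10127 genes tested (x axis, log2(TPM + 1)). Red points are the 64 genes called higher, blue points the 74 called lower and grey points the other 9989; ZNF10 is the highest point, and HBE1 and HBG2 lie low at the abundant end.

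Transcripts of the effectors are the check on the labels, and here the labels and the levels differ in part. ZNF10, the zinc finger gene whose KRAB domain is the one commonly used in such fusions, stood at 365 and 360 TPM in the libraries labelled KL and at 0.97 and 1.89 in sgGal4. Its level was 128 and 136 TPM in the libraries labelled L, 36.8 and 31.5 in LK, and 1.18 and 3.80 in those labelled K. The libraries labelled K thus overlapped sgGal4, while those labelled L, which by their label carry no KRAB, had a high level. KDM1A, the gene of LSD1, was at 26.8 and 26.6 TPM in KL, at 25.2 and 33.5 in sgGal4, at 105 and 84.2 in L, and at 27.4 and 30.6 in LK, which by label also carries LSD1 and overlapped sgGal4. ZNF10 rose by 7.25 on the log2 scale in KL (SE 0.329, adjusted p = 2.55e-08), while KDM1A differed by -0.12 (adjusted p = 0.869). KDM1A in the libraries labelled KL thus did not lie above sgGal4, and whether the MCP-LSD1 transcript would be counted under KDM1A was not tested. All directions below are those of the libraries as labelled.

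Some measures of whole libraries differed between KL and sgGal4 as well. Transcripts of the mitochondrial genome took 42.9% and 44.9% of TPM in KL and 53.6% and 43.7% in sgGal4. Cytosolic ribosomal protein genes took 18.9% and 19.8% of the remaining TPM in KL, 16.1% and 16.0% in sgGal4, and 17.7% to 19.1% in the other HS2 libraries. Among erythroid markers, KLF1 and NFE2 were present at 36.96 to 42.6 and 107 to 131 TPM in KL, but GATA1 was listed at 0 in all 10 libraries. Of 79 cytosolic ribosomal protein genes, 8 were also at 0 in every library, so a 0 need not mean an absent transcript. The study itself reports GATA1 binding at HS2 in K562 cells. Why GATA1 was listed at 0 was not tested. The summed level of 19 T cell genes was 3.75 to 13.2 TPM in KL and 31.6 to 38.7 in sgGal4, most of it CD3D. In the other HS2 libraries the sum was 6.52 to 29.7 TPM, also below sgGal4, and 9 of the 19 genes were at 0 in every library. The 13 B cell genes summed to 0 TPM in KL, and 7 of them were at 0 everywhere. The 21 neutrophil and monocyte genes summed to 35.2 to 51.0 TPM in KL and 51.7 to 72.6 in sgGal4. In the other HS2 libraries they summed to 33.4 to 52.2 TPM, a range that holds that of KL. The 12 epithelial and fibroblast genes summed to 265 to 276 TPM in KL, 438 to 580 in sgGal4 and 321 to 532 in the other HS2 libraries. The part of such differences in the results below was not tested, and in bulk RNA fewer cells of a type and less RNA per cell cannot be told apart.

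Some promoters are shown here because several genes of sterol synthesis and of the ATF4 response were called lower in the data below. The first 3 belong to sterol genes that fell in KL, and the capitals mark CCAAT or its reverse complement ATTGG, the letters bound by NF-Y. The last 2 belong to ATF4 effectors, and the capitals mark TGATGNAA or its reverse complement, the composite letters of ATF4 with a C/EBP partner. Each runs 5′ to 3′ on the gene's own strand over the 250 bases before the first listed RefSeq start of the gene (GRCh38.p14). Any other start of a gene, ATF3 included, was not searched, here or in the counts below. No match of one motif overlaps a match of the other in them.
HMGCS1 promoter (chr5:43313413-43313662, - strand): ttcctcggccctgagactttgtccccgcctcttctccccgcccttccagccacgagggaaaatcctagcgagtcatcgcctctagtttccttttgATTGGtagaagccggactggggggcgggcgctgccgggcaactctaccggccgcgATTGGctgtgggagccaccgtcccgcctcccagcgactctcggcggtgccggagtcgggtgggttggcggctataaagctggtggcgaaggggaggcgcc
MSMO1 promoter (chr4:165327419-165327668, + strand): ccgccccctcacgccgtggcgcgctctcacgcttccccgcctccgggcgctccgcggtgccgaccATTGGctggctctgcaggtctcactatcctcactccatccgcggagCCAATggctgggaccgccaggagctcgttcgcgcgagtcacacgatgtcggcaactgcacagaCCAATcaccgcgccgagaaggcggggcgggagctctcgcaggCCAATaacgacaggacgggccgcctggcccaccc
INSIG1 promoter (chr7:155297628-155297877, + strand): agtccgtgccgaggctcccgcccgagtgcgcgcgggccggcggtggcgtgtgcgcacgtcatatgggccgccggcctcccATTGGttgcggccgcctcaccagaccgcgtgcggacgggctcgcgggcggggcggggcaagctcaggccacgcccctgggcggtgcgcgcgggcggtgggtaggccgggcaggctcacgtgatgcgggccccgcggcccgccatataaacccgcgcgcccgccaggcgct
CHAC1 promoter (chr15:40953221-40953470, + strand): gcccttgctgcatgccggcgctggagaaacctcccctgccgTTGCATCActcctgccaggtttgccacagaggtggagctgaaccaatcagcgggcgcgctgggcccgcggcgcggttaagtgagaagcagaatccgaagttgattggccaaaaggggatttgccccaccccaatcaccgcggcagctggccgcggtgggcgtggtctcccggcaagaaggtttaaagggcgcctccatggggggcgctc
ATF3 promoter (chr1:212565157-212565406, + strand): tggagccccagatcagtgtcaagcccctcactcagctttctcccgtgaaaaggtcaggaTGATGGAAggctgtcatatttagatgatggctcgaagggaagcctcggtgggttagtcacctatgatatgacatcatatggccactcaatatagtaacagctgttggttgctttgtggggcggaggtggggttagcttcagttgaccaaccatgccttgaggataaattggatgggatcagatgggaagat
CCAAT was present in 12 of the 16 mevalonate and late sterol enzymes that have an entry (75%), against 33% of all 27305 promoters of this length. Of the sterol enzymes called lower, only HMGCS1 and MSMO1 were among these 12. The called enzymes IDI1, FDFT1, SQLE, CYP51A1 and ACAT2 lacked a match or an entry, so the 75% rests mostly on enzymes that were not called. MSMO1 held 4 matches, HMGCS1 held 2 and INSIG1 held 1. The genes called lower held it in 25 of 52 promoters (48.1%) and those called higher in 19 of 49 (38.8%). TGATGNAA was present in 3 of 18 ATF4 effectors (16.7%), against 3.19% of all promoters. These 3 were ATF3, CHAC1 and FGF21, and the called effectors DDIT4 and GDF15 held no match. The genes called lower held TGATGNAA in 2 of 52 promoters (3.85%) and those called higher in 1 of 49 (2.04%), near the share of all promoters. The sterol element written as TCACNCCAC was in 0 of the 16 sterol enzyme promoters and in 0.875% of all. Both strands were searched, and these are descriptions of letters in a short window with no test.

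The β-like globins lost most of their transcript in the libraries labelled KL. HBE1 (chromosome 11, minus strand, GRCh37) stood at 384 and 361 TPM in KL and at 1376 and 1620 TPM in sgGal4. Its level was 695 and 759 TPM in K, 1019 and 986 in L, and 557 and 458 in LK. The KL libraries were the lowest of the 10, and no other group overlapped them. HBE1 fell by 2.00 on the log2 scale (SE 0.129, adjusted p = 1.49e-06), to 25.0% of its sgGal4 level as computed back from that scale. HBG2 was at 222 and 229 TPM in KL and at 941 and 673 TPM in sgGal4, with 698 and 581 in K, 554 and 519 in L, and 365 and 421 in LK. It fell by 1.81 (SE 0.159, adjusted p = 5.47e-05), to 28.4%, and again both KL libraries lay below the other 8. These calls held without any single library and in each of the 9 analysis settings, with adjusted p of at most 0.00787 for HBE1 and 0.0155 for HBG2.

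HBG1, the second fetal gene, was at 58.9 and 40.6 TPM in KL and 118 and 99.4 TPM in sgGal4. It fell by 1.13 (SE 0.197, adjusted p = 0.00994), to 45.7%, a call that was lost without KL replicate 2 (adjusted p = 0.147) and without sgGal4 replicate 1 (adjusted p = 0.0734). HBG1 and HBG2 are near-identical copies, so the split of reads between them is uncertain. The study's methods kept only uniquely aligned reads, so reads shared by the copies may be missing, also from their sum. As counted, that sum went from 1059 and 773 TPM to 281 and 269 TPM (log2 difference -1.71, SE 0.149, adjusted p = 4.11e-05). HBD was at 20.3 and 15.2 TPM in KL and at 19.4 and 18.5 in sgGal4, which overlap (-0.10, adjusted p = 0.905). HBB was low everywhere, at 0 and 2.25 TPM in KL and 4.70 and 2.91 in sgGal4 (-1.39, adjusted p = 0.343). The summed β-like level, as counted, was 686 and 648 TPM in KL against 2459 and 2414 TPM in sgGal4. This sum fell by 1.87 (SE 0.0986, adjusted p = 1.04e-07), to 27.4%. Within it HBE1 kept 56.0% and 55.7% of the transcripts in KL, against 56.0% and 67.1% in sgGal4. HBD took 2.96% and 2.35% in KL and 0.788% and 0.766% in sgGal4, a larger share at a level that overlapped sgGal4.

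**Figure D2:**
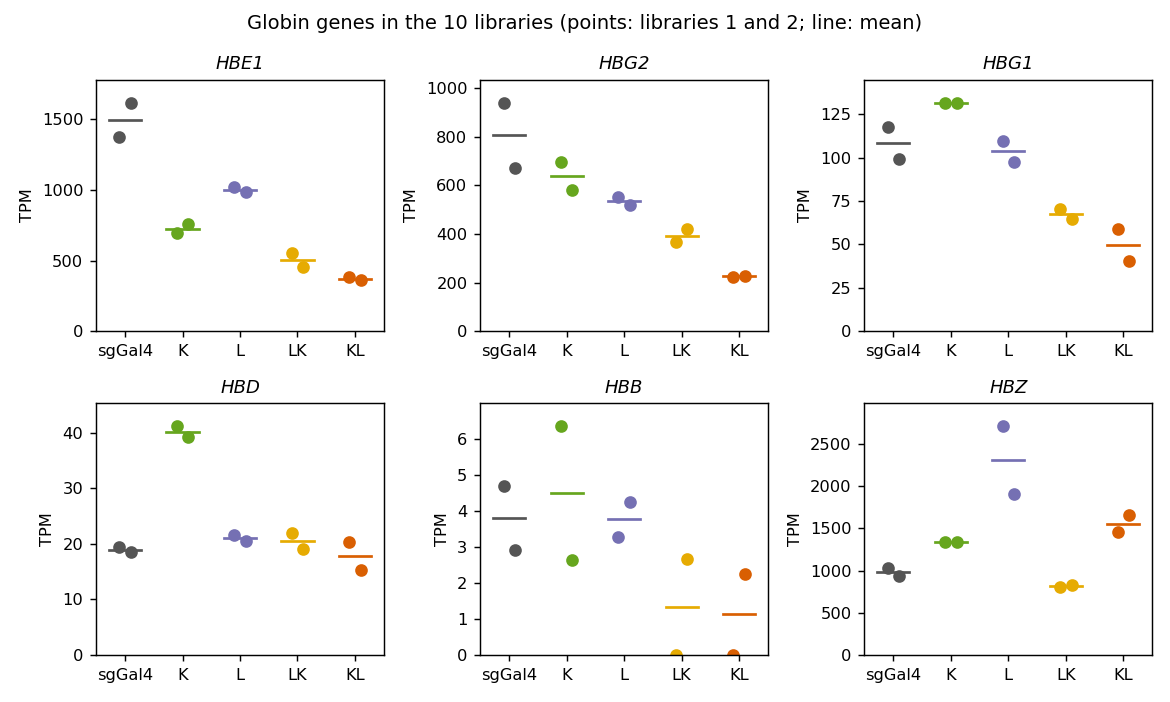
TPM of HBE1, HBG2, HBG1, HBD, HBB and HBZ by labelled group, each point a library (2 a group) and each line the group mean, on linear axes that start at 0. The libraries labelled KL are the lowest of the 10 for HBE1, HBG2 and HBG1, while HBZ in KL (1457 and 1659 TPM) lies above sgGal4.

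Tests between HS2 groups compare their means without sgGal4, though all 10 libraries, sgGal4 included, set the spread and the filter. Against the libraries labelled K, which by label share the dCas9-KRAB fusion but whose ZNF10 overlapped sgGal4, β-like output in KL gave a log2 difference of -1.21 (adjusted p = 3.40e-05). Against L the difference was -1.32 (adjusted p = 2.14e-05). Against the libraries labelled LK, where by label the effectors are exchanged between dCas9 and MCP and β-like output was 1015 and 965 TPM, the difference was smaller at -0.57 (adjusted p = 0.024). That last call was lost without LK replicate 1 (adjusted p = 0.302), LK replicate 2 (0.182), KL replicate 1 (0.145) or KL replicate 2 (0.241). HBE1 differed from K by -0.96 (adjusted p = 0.0074) and from L by -1.43 (adjusted p = 0.000249), and its difference from LK of -0.44 was not called (adjusted p = 0.230). The HBE1 call against K was lost without K replicate 1 (adjusted p = 0.0616), K replicate 2 (0.120) or KL replicate 2 (0.109). For HBG2 the difference from K was -1.49 (adjusted p = 0.000635) and from L -1.25 (adjusted p = 0.00333), the latter lost without L replicate 1 (0.0667), KL replicate 1 (0.0558) or KL replicate 2 (0.0569). HBG2 against LK (-0.80, adjusted p = 0.0485) was called in 2 of 9 settings, with adjusted p of 0.0150 to 0.428 over all alternatives, and the leave-outs that kept it were those of the sgGal4 libraries.

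Of the 4 α-like genes tested on chromosome 16, 0 were called lower in KL. Only 0.731% of all genes tested were called lower, so 0 of 4 says little. HBZ, the embryonic α-like gene, was at 1457 and 1659 TPM in KL and 1034 and 940 in sgGal4, a difference of 0.66 (SE 0.142, adjusted p = 0.034). The groups do not overlap, but the call was kept in only 3 of 9 settings. It was lost without sgGal4 replicate 1 (adjusted p = 0.0662), sgGal4 replicate 2 (0.0982), either K or either LK library (0.0581 to 0.0590), KL replicate 1 (0.0911) or KL replicate 2 (0.273). HBA1 was at 109 and 94.6 TPM in KL and 136 and 81.3 in sgGal4 (-0.05, adjusted p = 0.964). The ratio of β-like to α-like TPM, as counted from uniquely aligned reads, was 0.423 and 0.360 in KL and 2.05 and 2.27 in sgGal4. It lay at 1.1 and 1.02 in K, 0.596 and 0.800 in L, and 1.14 and 1.06 in LK, so that the KL libraries had the lowest ratios of the 10.

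Genes around the β-globin locus gave no call. Of 23 genes tested on 11p15, 0 were called with limma and 1 had an unadjusted p under 0.05, and their median difference was 0.02 against 0.05 for all genes tested. Of all 10127 genes tested, 1.36% were called and 1492 had such a p. At that share, 0 calls among 23 genes says little. The olfactory receptor gene OR51B4, which sits beside the locus (GRCh37, chr11:5322244-5323176), was at 43.7 and 38.4 TPM in KL and 37.6 and 53.4 in sgGal4 (-0.13, adjusted p = 0.87). RRM1, a subunit of ribonucleotide reductase, was at 47.9 and 48.7 TPM in KL and 42.2 and 60.1 in sgGal4. STIM1, a calcium sensor of the endoplasmic reticulum, was at 29.2 and 27.8 TPM against 20.7 and 25.1 (0.31, adjusted p = 0.61).

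Erythroid regulators as a group were not called. Of 17 erythroid transcription factors tested, 0 passed with limma, 2 had an unadjusted p under 0.05, and the median was 0.27. KLF1, the activator of adult globin, was at 42.6 and 36.96 TPM in KL and 20.3 and 24.1 in sgGal4, which do not overlap (0.82, adjusted p = 0.077). Heme biosynthesis had 0 of 12 genes called and 1 with an unadjusted p under 0.05. Of all 10127 genes tested, 1.36% were called and 1492 had such a p, so 0 calls among 17 or 12 genes says little. Among 19 regulators of fetal globin, 1 was called, and it was BCL11A, the repressor of the fetal genes. Of all genes tested, 0.632% were called higher and 0.731% lower. BCL11A stood at 9.84 and 10.0 TPM in KL, above the 1.20 and 1.72 of sgGal4 and the 1.58 to 4.75 of the other 6 libraries. It rose by 2.16 (SE 0.414, adjusted p = 0.0168), a call lost without sgGal4 replicate 1 (adjusted p = 0.113), KL replicate 1 (0.0944) or KL replicate 2 (0.131). In the red cell membrane list of 20 genes, the water channel AQP1 was called higher (1.97) and the cytoskeletal protein EPB41 lower. The AQP1 call was lost without sgGal4 replicate 1 (0.131), KL replicate 1 (0.10) or KL replicate 2 (0.166). EPB41 went from 276 and 289 TPM to 145 and 148 TPM (-0.94, adjusted p = 0.00501), and its call was lost without KL replicate 1 (0.0528) or KL replicate 2 (0.0519).

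Genes called higher in KL included several of blood and signalling cells with low levels in sgGal4. ARHGDIB was at 32.6 and 26.1 TPM in KL and at 0 and 1.5 in sgGal4. Its level was 6.14 and 6.85 TPM in K, 4.54 and 3.25 in L, and 8.70 and 10.5 in LK. The KL libraries were the highest of the 10, and ARHGDIB rose by 4.25 (SE 0.426, adjusted p = 0.000151). ETS1, a lymphoid transcription factor, was at 12.8 and 14.6 TPM in KL, 1.29 and 1.81 in sgGal4 and 1.72 to 4.03 in the other 6 libraries. It rose by 2.53 (SE 0.384, adjusted p = 0.00325). SLC18A2, the vesicular monoamine transporter, was listed at 0 in both sgGal4 libraries, at 0 to 0.40 TPM in the other 6 and at 7.37 and 6.20 in KL. It was called (adjusted p = 0.00277), though not with a pseudocount of 0.1 (adjusted p = 0.082), and over all its alternatives the adjusted p ran from 0.000667 to 0.082. SCRT2, a SNAIL-family repressor of neurons, was at 6.79 and 7.87 TPM in KL and at 0.22 and 0 in sgGal4, with 0.19 to 1.45 elsewhere (2.91, adjusted p = 0.00255). ARHGDIB, ETS1, SLC18A2 and SCRT2 were called whichever library was left out. SLC18A2, SCRT2, PRSS57 and RASGRP4 were the 4 called genes whose mean over the 8 libraries without KL was under 1 TPM, so they passed the filter on low values only through the KL libraries in which they are high, and had to differ (PRSS57 and RASGRP4 are named after their values were seen).

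SPARC, a matrix glycoprotein made by megakaryocytes, was at 75.0 and 81.3 TPM in KL and 9.23 and 21.6 in sgGal4, with 15.6 to 46.0 in the other 6 libraries. It rose by 2.38 (SE 0.326, adjusted p = 0.00148). SRGN, the granule proteoglycan serglycin, was the other of the 2 megakaryocyte genes called among 11 tested, at 42.6 and 46.4 TPM in KL against 16.2 and 20.4. Among all genes tested, 0.632% were called higher. The SRGN call (1.25, adjusted p = 0.026) was lost without sgGal4 replicate 1 (0.151), KL replicate 1 (0.110) or KL replicate 2 (0.209). The list's median was 0.49 and its summed level 292 to 301 TPM in KL, 196 to 249 in sgGal4 and 179 to 239 in the others. Of the 11 genes, 5 had both KL libraries above both sgGal4 libraries, 4 had both below and 2 overlapped. Of all genes tested, 24.3% had both above and 18.6% both below. The 4 below were GP1BB, a platelet glycoprotein chain, at 56.3 and 51.8 TPM against 62.2 and 73.0 (-0.31, adjusted p = 0.467), and LTBP1 (-0.50), VCL (-0.54) and CD9 (-0.75), none of which was called. ITGA2B, the defining integrin of the lineage, was at 4.81 and 1.83 TPM in KL and 0.93 and 0.23 in sgGal4 (1.40, adjusted p = 0.229). NEFH, a neurofilament chain, rose from 3.47 and 3.87 TPM to 20.8 and 24.8 (2.35, adjusted p = 0.0010), and here the libraries labelled K, at 22.7 and 18.1 TPM, overlapped KL. NEFH was thus high in 1 other HS2 group.

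The remaining genes among the 12 largest rises had less stable calls. PLCB2, a phospholipase C of blood cells, was at 17.1 and 11.6 TPM in KL and 0.45 and 1.19 in sgGal4 (3.08, adjusted p = 0.00405). Its call was lost without sgGal4 replicate 1 (0.0550) or KL replicate 1 (0.0528). NCKAP1L, FAM111A, CYB5A and MDP1 rose by 2.30 to 2.53 with adjusted p of 0.010 to 0.0209. NCKAP1L and FAM111A lost the call without any 1 of the 4 libraries compared, with adjusted p up to 0.170 and 0.149. CYB5A lost it without sgGal4 replicate 2 (0.0632) or KL replicate 1 (0.0911), and MDP1 without sgGal4 replicate 1 (0.0705), sgGal4 replicate 2 (0.103) or KL replicate 2 (0.245).

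Of the genes called lower, HDAC9 had the largest difference. HDAC9, a class IIa histone deacetylase, was at 1.28 and 1.21 TPM in KL and 23.0 and 25.1 in sgGal4, with 5.45 to 15.6 in the other 6 libraries. It fell by 3.48 (SE 0.435, adjusted p = 0.000829) and was the only call among 5 class II deacetylases (0.731% of all genes tested were called lower). KLK13, a kallikrein protease, went from 18.2 and 16.9 TPM to 1.39 and 0.66 (-3.22, adjusted p = 0.00131). ENAH, an actin regulator of the Ena/VASP family, was at 1.36 and 4.80 TPM in KL, 22.5 and 18.3 in sgGal4 and 12.1 to 20.3 in the other 6 libraries. No HS2 library outside KL came within the KL range, and ENAH fell by 2.53 (adjusted p = 0.00325). MUC4, a membrane mucin, was at 6.92 and 8.32 TPM in KL and 42.7 in both sgGal4 libraries, with 13.1 to 29.6 elsewhere (-2.35, adjusted p = 0.000223). SCG3, a secretory granule protein, was at 12.4 and 20.7 TPM in KL, 84.3 and 100 in sgGal4 and 21.8 to 49.9 elsewhere (-2.45, adjusted p = 0.000191). AIG1 (-2.85, adjusted p = 0.00116) and TMEM158 (-2.69, adjusted p = 0.000307) were lower in all 8 HS2 libraries than in both sgGal4 libraries. All of these were called whichever library was left out.

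FN1, the gene of fibronectin, separated the groups in another order. It was at 28.7 and 27.4 TPM in KL and 31.7 and 31.3 in L, but at 103 and 129 in sgGal4, 127 and 104 in K and 209 and 195 in LK. FN1 fell by 2.00 against sgGal4 (adjusted p = 6.61e-05), and it differed from LK by -2.80 (adjusted p = 4.19e-06) and from K by -2.0 (adjusted p = 0.00017), calls that held without any single library. Against L it differed by -0.16 (adjusted p = 0.87). FN1 was the only call among 7 epithelial and fibroblast genes tested, whose median was -0.81 (0.731% of all genes tested were called lower). TWIST1, a mesenchymal transcription factor, was at 3.03 and 1.41 TPM in KL, 13.1 and 15.6 in sgGal4 and 7.04 to 17.6 elsewhere (-2.29, adjusted p = 0.00563), and its call was lost without KL replicate 2 (0.0769). PDGFA, IL6, ABCB1 and RP11-159G9.5 completed the 12 largest falls, with differences of -2.43 to -2.54. Of these, PDGFA lost its call without sgGal4 replicate 1 (0.0531), sgGal4 replicate 2 (0.0501) or KL replicate 2 (0.0965). IL6 and ABCB1 lost theirs without either sgGal4 library or KL replicate 1, with adjusted p up to 0.100 and 0.104. RP11-159G9.5 lost it without any of 8 libraries (up to 0.199), the L libraries being the exceptions.

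**Figure D3:**
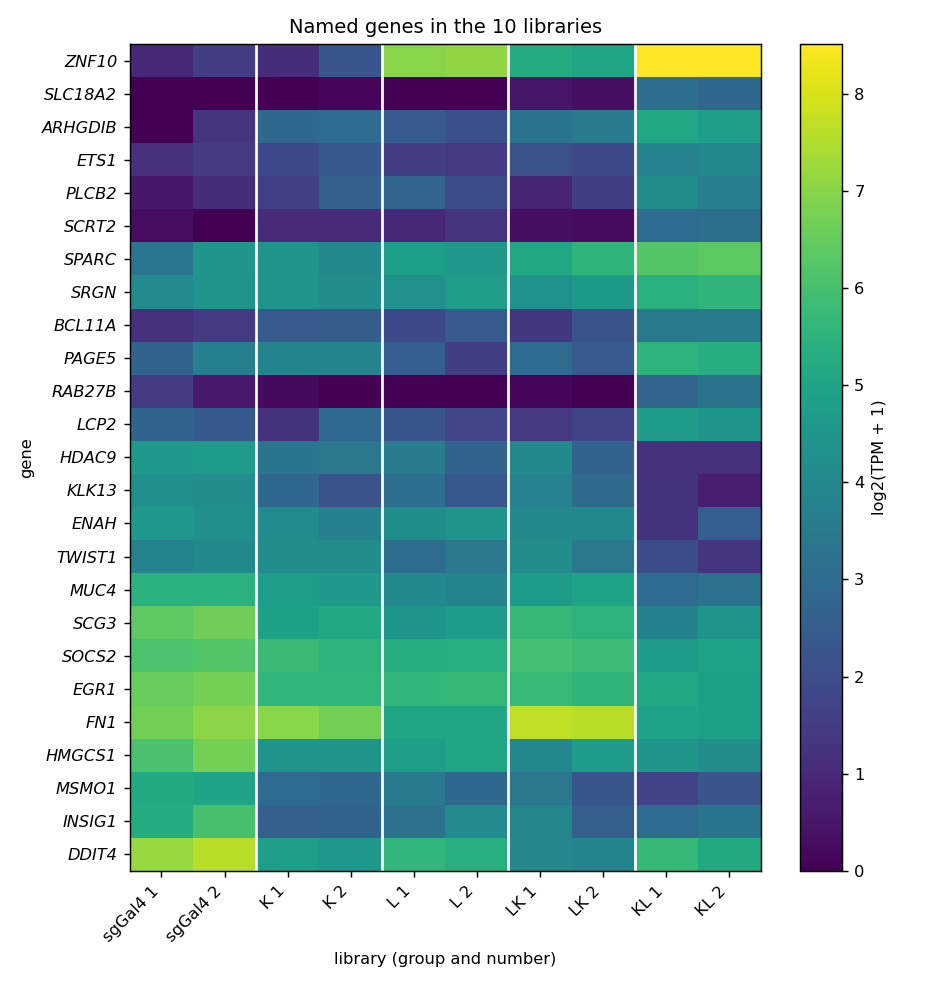
Level in each of the 10 libraries (columns, by labelled group) of 25 named genes (rows), as log2(TPM + 1) from dark (low) to bright (high). ARHGDIB, ETS1, SCRT2 and SLC18A2 are brightest in the 2 KL columns, and HDAC9, KLK13 and ENAH are dark there, while HMGCS1, MSMO1 and INSIG1 are brightest in the sgGal4 columns.

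Several enzymes that build cholesterol fell in KL, and their levels were low in the other HS2 groups as well. Of 19 mevalonate and late sterol enzymes tested, 7 were called lower (0.731% of all genes tested were) and 0 higher, and both KL libraries lay below both sgGal4 libraries for 16, where 18.6% of all genes did. The median difference over the 19 was -1.08, against 0.05 for all genes. The same median was -1.07 in K, -0.97 in L and -1.08 in LK, comparisons that share the 2 sgGal4 libraries with KL. HMGCS1, the enzyme that makes HMG-CoA, was at 21.9 and 16.9 TPM in KL and 66.2 and 105 in sgGal4, with 14.6 to 32.0 in the other 6 libraries. It fell by 2.06 (SE 0.294, adjusted p = 0.00216), and its difference from LK was 0.03. MSMO1, a sterol C4 oxidase, was at 2.26 and 3.73 TPM in KL, 36.0 and 30.1 in sgGal4 and 3.84 to 10.7 elsewhere (-3.11, adjusted p = 0.00116). The KL libraries were the lowest of the 10 for MSMO1, while for HMGCS1 they lay among the other HS2 libraries. IDI1 (-1.86), FDFT1 (-1.60), SQLE (-1.78) and CYP51A1 (-1.57) were called too, all with adjusted p of at most 0.00335. These 6 calls held without any single library. ACAT2, the seventh (-1.69, adjusted p = 0.00991), lost its call without sgGal4 replicate 1 (0.0858), KL replicate 1 (0.0528) or KL replicate 2 (0.0844).

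Regulators of sterol uptake and genes of fatty acid synthesis gave 4 more calls, all lower, where 0.731% of all genes tested were called lower. Among 14 SREBP regulators and cholesterol uptake genes, INSIG1, which retains SREBP in the endoplasmic reticulum, was the only call, and the median was -0.54. INSIG1 was at 6.88 and 8.94 TPM in KL and 38.1 and 64.5 in sgGal4 (-2.51, adjusted p = 0.0100). Its call was lost without sgGal4 replicate 2 (0.0776), KL replicate 1 (0.0780) or KL replicate 2 (0.0504). Of 15 fatty acid genes, SCD, FASN and FADS1 were called lower and the median was -0.68. SCD, the stearoyl-CoA desaturase, went from 194 and 229 TPM to 87.6 and 84.2 (-1.28, adjusted p = 0.000866) and was called whichever library was left out. FASN, the fatty acid synthase (-1.08), lost its call without KL replicate 2 (0.0979), and FADS1 without sgGal4 replicate 1 (0.116), KL replicate 1 (0.146) or KL replicate 2 (0.0847).

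Some ATF4 stress effectors were lower in KL than in sgGal4, and 2 of the list were higher in KL than in LK (0.197% of all genes tested were). Of 19 tested, 4 were called lower (DDIT4, CHAC1, ATF3 and GDF15; 0.731% of all genes tested were) and 0 higher, with a median of -0.78. For 12 of the 19 both KL libraries lay below both sgGal4 libraries, where 18.6% of all genes did. The median against sgGal4 was -1.09 in K, -0.63 in L and -1.25 in LK. DDIT4, an inhibitor of mTORC1, was at 49.9 and 35.4 TPM in KL and 146 and 195 in sgGal4. Its level was 25.4 and 22.2 TPM in K, 49.2 and 39.2 in L, and 14.5 and 13.5 in LK. DDIT4 fell by 1.98 against sgGal4 (adjusted p = 0.000658), a call kept without each library, and was higher than in LK by 1.53 (adjusted p = 0.0147). That call was lost without LK replicate 1 (0.103), LK replicate 2 (0.126), KL replicate 1 (0.149) or KL replicate 2 (0.0528). VEGFA was the other ATF4 list gene that differed from LK (1.00, adjusted p = 0.0485), a call lost without any single library (0.0543 without sgGal4 replicate 2 to 0.363 without LK replicate 2). CHAC1, which degrades glutathione, was at 6.33 and 3.70 TPM against 16.7 and 26.8 (-1.92, adjusted p = 0.0369), and with 1 library left out its call was kept only when that was an L library, with adjusted p of 0.0545 (K replicate 1) to 0.273 (KL replicate 2) otherwise. ATF3 and GDF15 each lost the call without sgGal4 replicate 2 (0.136 and 0.135), KL replicate 1 (0.0844 and 0.145) or KL replicate 2 (0.170 and 0.115). ATF4 itself was at 129 and 134 TPM in KL, between the 124 and 164 of sgGal4 (-0.12, adjusted p = 0.81). The serine and proline enzymes (0 of 18), tRNA synthetases (0 of 19) and unfolded protein response genes (0 of 20) had no call, with 4, 2 and 3 genes at an unadjusted p under 0.05. Of all 10127 genes tested, 1.36% were called and 1492 had such a p, so 0 calls in these lists says little.

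**Figure D4:**
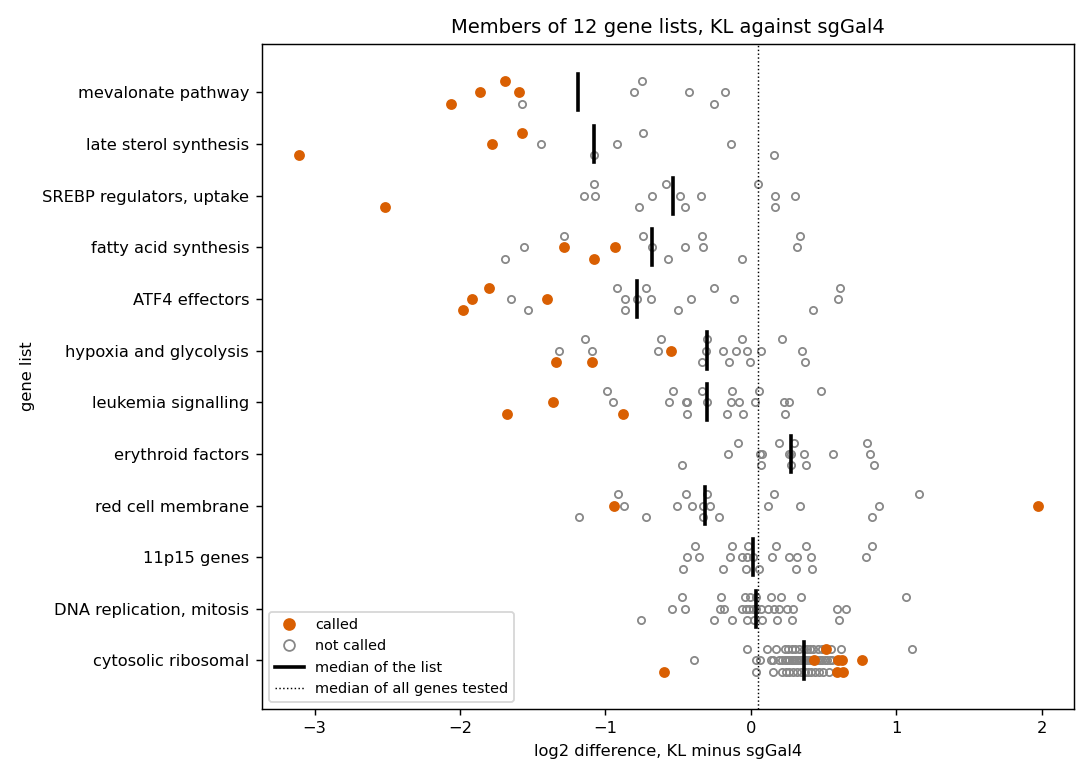
Difference between the libraries labelled KL and sgGal4 (x axis, log2(TPM + 1)) for the genes of 12 lists (rows), with called genes in filled orange, a bar at each list's median and a dotted line at the median of all genes tested. The mevalonate and late sterol lists have medians of -1.19 and -1.08, while the 11p15 and DNA replication lists sit at 0.02 and 0.03.

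Growth and signalling genes of the leukemia gave 3 calls among 23, all lower, with a median of -0.31. Of all genes tested, 0.731% were called lower. EGR1, an immediate early factor, was at 32.6 and 27.9 TPM in KL, 91.6 and 106 in sgGal4 and 46.0 to 51.2 elsewhere. It fell by 1.68 (adjusted p = 0.000462). SOCS2, a STAT5 target that restrains cytokine receptors, was at 24.6 and 29.6 TPM in KL, 68.4 and 73.0 in sgGal4 and 38.8 to 61.9 elsewhere (-1.36, adjusted p = 0.00295). For both genes the KL libraries were the lowest of the 10, and both calls held without any single library. PIM1, a STAT5 target kinase, was at 79.2 and 67.7 TPM in KL and 126 and 146 in sgGal4 (-0.88, adjusted p = 0.0212), and it lost the call without sgGal4 replicate 2 (0.0865), KL replicate 1 (0.0703) or KL replicate 2 (0.231). DNA replication and mitosis genes had 0 of 35 called with limma, 4 with an unadjusted p under 0.05 and a median of 0.03. The p53 targets (0 of 17) and interferon genes (0 of 13) had no call either, with 7 and 5 at an unadjusted p under 0.05. Of all 10127 genes tested, 1.36% were called and 1492 had such a p, so 0 calls in these lists says little.

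Other lists gave few calls, and most of these depended on single libraries. Among all genes tested, 0.632% were called higher and 0.731% lower, and 1492 of the 10127 had an unadjusted p under 0.05. The corepressor genes that work with KRAB had 0 of 9 called with limma and 0 at an unadjusted p under 0.05, and the LSD1 and CoREST complex genes 0 of 12 and 4. At the shares called over all genes, 0 calls among 9 or 12 genes says little. SLC38A2, a sodium-coupled glutamine transporter, was the only call among 14 amino acid transporters. It was at 109 and 132 TPM in KL and 225 and 298 in sgGal4 (-1.11, adjusted p = 0.00798), a call lost without KL replicate 1 (0.0903). Of 21 hypoxia and glycolysis genes, the glucose transporter SLC2A3 (-1.09), the mitophagy receptor BNIP3 (-1.34) and the aldolase ALDOA (-0.55) were called lower, and the median was -0.30. SLC2A3 lost its call without sgGal4 replicate 1 (0.0744), sgGal4 replicate 2 (0.0632) or KL replicate 2 (0.191). BNIP3 lost it without any library (0.0554 to 0.233), and ALDOA without 7 of 10 (up to 0.305, KL replicate 2). Of 16 immediate early genes, EGR1, ATF3 and JUND were called lower, with a median of -0.52, and JUND lost its call without 7 of 10 libraries (up to 0.178, sgGal4 replicate 2). Among 13 iron genes, the iron exporter SLC40A1 was called higher (1.25) and the ferritin light chain FTL lower (-0.47). SLC40A1 lost its call without 9 of 10 libraries (up to 0.248, KL replicate 2), and FTL without either LK library, KL replicate 1 or KL replicate 2 (up to 0.273). PRG2, the major basic protein of eosinophils, was called among 3 genes tested of the eosinophil, basophil and mast cell list (2.14, adjusted p = 0.0219), and lost the call without either sgGal4 library or KL replicate 1 (up to 0.174). The summed level of that list was 84.2 to 93.8 TPM in KL and 74.9 to 88.1 in sgGal4, which overlap.

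Cytosolic ribosomal protein genes stood slightly higher in KL. Of 71 tested, 7 were called higher and 1 lower, where 0.632% and 0.731% of all genes tested were. The median was 0.36, and 59 had both KL libraries above both sgGal4 libraries, where 24.3% of all genes did. The median was 0.35 in K, 0.26 in L and 0.35 in LK against the same sgGal4 libraries. RPL28, the strongest, was at 3248 and 3239 TPM in KL, 1799 and 2035 in sgGal4 and 2168 to 2441 elsewhere (0.76, adjusted p = 0.00131). It was called without each library, but not when limma was run with no mean-variance trend (adjusted p = 0.166). RPL8 went the other way, from 2294 and 2525 TPM to 1651 and 1526 (-0.60, adjusted p = 0.0119), and lost its call without KL replicate 1 (0.0606) or KL replicate 2 (0.170). The other 6 ribosomal calls were each lost without at least KL replicate 2, and were kept in only 2 (RPS28) to 6 (RPL36) of 9 settings. Of the 13 mitochondrially encoded genes, MT-ND6 was at 29635 and 30489 TPM in KL and 15937 and 13482 in sgGal4 (1.04, adjusted p = 6.59e-05). MT-ND6 was called without each library and in 7 of 8 settings, but not when limma was run with no mean-variance trend (adjusted p = 0.0748). MT-CO3 (-0.54) and MT-ND4 (-0.51) were called lower, and both lost the call without KL replicate 1 (0.0531 and 0.184) or KL replicate 2 (0.0665 and 0.193), MT-ND4 also without any K, L or LK library. MT-ND6 is the one protein gene on the light strand, and whether counting used strand is not given in the sources used here, so its reads and antisense reads cannot be told apart.

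All 138 called genes had KL libraries that did not overlap sgGal4, where 42.9% of all genes tested did so. For 105 of the 138, all 8 HS2 libraries lay on the called side of both sgGal4 libraries, 41 above and 64 below (11.8% of all genes tested, 6.53% above and 5.29% below). For 68, both KL libraries lay beyond all other 8 libraries, 39 above and 29 below (7.3% of all genes tested, 4.3% above and 3% below). Among genes called against sgGal4, 21 also differed from LK, 12 from K and 11 from L, and HBG2 and SLC18A2 differed from all 4 groups. SLC18A2 passed the filter on low values only through the KL libraries, so its differences are no independent result. SLC18A2 also lost its calls against LK, K and L without any 1 of the libraries compared (adjusted p up to 0.182, 0.142 and 0.130), and HBG2 lost its call against LK in 8 of 10 leave-outs.

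Tested directly, KL differed from LK at 39 genes (0.385%), 20 higher and 19 lower, from K at 17 (0.168%), 9 higher and 8 lower, and from L at 28 (0.276%), 21 higher and 7 lower. The shares of all genes tested were 0.197% higher and 0.188% lower against LK, 0.0889% and 0.079% against K, and 0.207% and 0.0691% against L. The count against LK was 3 without either LK library and 4 without either KL library. Against K it was 4 without either K library or KL replicate 2, 10 without KL replicate 1, and 29 and 30 without sgGal4 replicates 1 and 2. Against L it was 5 without either L library, 2 without KL replicate 1, 3 without KL replicate 2 and 17 without either LK library. ZNF10 was higher than in LK by 3.37 (adjusted p = 0.000321) and than in K by 6.81 (adjusted p = 6.00e-08). RAB27B, a GTPase of secretory granules, was at 5.90 and 8.77 TPM in KL and 1.79 and 0.49 in sgGal4, but at 0 to 0.15 in the other 6 libraries. It differed from LK by 2.98, from K by 2.94 and from L by 3.04 (adjusted p = 0.0147 to 0.0161), while against sgGal4 it was not called (2.01, adjusted p = 0.0525). RAB27B also passed the filter on low values only through the KL libraries. PAGE5, a cancer-testis antigen, was at 44.6 and 38.9 TPM in KL, 5.65 and 11.7 in sgGal4 and 2.02 to 13.3 elsewhere. It differed from L by 3.35 (adjusted p = 0.0028), a call lost only without KL replicate 1 (0.0537). LCP2, an adaptor of immune receptors also known as SLP-76, was at 24.3 and 21.0 TPM in KL, 5.65 and 4.35 in sgGal4 and 1.35 to 6.57 elsewhere, and differed from LK by 2.99 (adjusted p = 0.019). RAB27B lost each of its 3 calls without any 1 library of the groups compared (adjusted p up to 0.231), and LCP2 likewise (up to 0.168). KDM1A differed from L by -1.78 (adjusted p = 0.0033), a call lost without L replicate 1 (0.0732), KL replicate 1 (0.0537) or KL replicate 2 (0.0569).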

How the data were processed

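Poly(A) RNA from 10 K562 libraries (5 groups of 2) was sequenced, and the authors deposited 1 table of TPM values per library. According to the submitters' processing notes and the study's methods, reads were aligned to hg19 with STAR 2.5.2b and quantified with RSEM. The methods give a setting that keeps only uniquely aligned reads, so reads shared by near-identical genes may be missing. The labels name a directional NEBNext kit, whereas the methods name an Ovation kit. TPM values carry no read counts, so the depth behind each value is unknown, and the DESeq2 analysis named in the methods, which needs counts, was not repeated. TPM is a share of a library, so a change in abundant transcripts moves all others.

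Values were analysed as log2(TPM + 1) with limma 3.58.1 (R 4.3.3, jsonlite 2.0.0; figures and motif counts with Python 3.11.15, numpy 2.4.6 and matplotlib 3.10.9). A single fit with a mean-variance trend held all 10 libraries (5 residual degrees of freedom) and the 10127 genes whose mean reached 1 TPM. P-values were adjusted by the Benjamini-Hochberg method over all of these, with a threshold of 0.05. A fold on this scale understates the change of low genes. TPM sums of the β-like genes and of HBG1 and HBG2 were added to the fit as further features. The script was tested on simulated data. Named genes were all genes of 36 lists, the 12 largest rises and 12 largest falls among called genes whose KL and sgGal4 libraries did not overlap, and the 5 of each against LK, K and L. Other genes are said to be chosen after their values were seen. The comparison and the lists were chosen with earlier results of these data known, and the motifs after the values were seen. Gene positions are from GENCODE 44 on GRCh37, found for 760 of 790 symbols, and promoter sequences are from RefSeq on GRCh38.p14. Alternatives were a pseudocount of 0.1, no filter, a higher filter, median-of-ratios and quantile scaling, removal of mitochondrial genes, no trend, only the 2 groups compared, a replicate block, and each library left out. Some items are not reported here.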

Additional observations from a re-analysis of the deposited data

Results flagged for a closer look

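Several genes that differed between the libraries labelled KL and sgGal4 also differed between KL and another HS2 group, by the test of that difference in the same limma fit (adjusted p under 0.05). Against LK, KL was higher for ZNF10 (3.37), FAM111A (2.88), SCRT2 (2.76), PLCB2 (2.68) and SLC18A2 (2.55) on the log2(TPM + 1) scale. SCRT2 and SLC18A2 passed the filter on low values only through the KL libraries, so their differences, here and below, are no independent result. KL was lower than LK for KLK13 (-2.36), HDAC9 (-2.21), ENAH (-2.19), SCG3 (-1.50), HBG2 (-0.80) and the β-like globin sum (-0.57). Against K, KL was higher for ZNF10 (6.81), SLC18A2 (2.89) and SPARC (2.08), and lower for HBG2 (-1.49), HBG1 (-1.41), the β-like sum (-1.21) and HBE1 (-0.96). Against L, KL was higher for SLC18A2 (2.96), ARHGDIB (2.64) and ETS1 (2.38), and lower for ENAH (-2.43), HBE1 (-1.43), the β-like sum (-1.32), HBG2 (-1.25) and HBG1 (-1.06). Of these 26 differences, 6 were called whichever library was left out, namely ZNF10 against LK and K, HBG2 and the β-like sum against K, and HBE1 and the β-like sum against L. Against LK, the β-like sum, FAM111A, SCRT2, PLCB2 and SLC18A2 lost the call without any 1 of the 4 libraries compared (adjusted p up to 0.302, 0.170, 0.140, 0.307 and 0.182). ENAH and SCG3 lost it without either LK library or KL replicate 1 (up to 0.196 and 0.228). KLK13 lost it without either sgGal4, LK or KL library (up to 0.337), HDAC9 without those or either K library (up to 0.434), and HBG2 without any K, L, LK or KL library (up to 0.428). Against K, SLC18A2 and SPARC lost the call without any 1 of the 4 libraries compared (up to 0.142 and 0.229), and HBE1 and HBG1 without either K library or KL replicate 2 (up to 0.120 and 0.122). Against L, SLC18A2, ARHGDIB and ETS1 lost it without any 1 of the 4 libraries compared (up to 0.130, 0.183 and 0.235), ENAH without either L library or KL replicate 1 (up to 0.150), and HBG2 without L replicate 1 or either KL library (up to 0.0667). HBG1 against L was called in 3 of 9 settings and in 2 of 10 leave-outs, those of the sgGal4 libraries (up to 0.381). Groups of 2 libraries are too small for a search for outlying libraries.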

How the results depend on the processing

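The β-like sum, HBE1 and HBG2 kept their call against sgGal4 in all 9 settings and without each of the 10 libraries, and 31 of the 138 called genes, 9 higher and 22 lower, did so in every setting that tested them. The 9 include SCRT2, which passed the filter on low values only through the KL libraries. Leave-outs kept the filter set on all 10 libraries, so its stability is no independent result. The count of 138 was 83 with no filter, 75 with no trend and 66 with only the 2 groups compared, and 49 to 167 with 1 library left out (117 higher and 50 lower in the last). Median-of-ratios scaling gave 181 (74 higher, 107 lower) and quantile normalization 189 (73 and 116). Scalings moved the median of all genes by at most 0.097 downward (-0.04, -0.04 and -0.097). KL against LK went from 39 to 20, 17 and 23 under the first 3 of these and to 3 to 39 with a library left out. KL against K went from 17 to 29 with no filter and to 4 to 30. KL against L went from 28 to 15 with a pseudocount of 0.1, 15 with no filter, 18 with no trend, 13 with only its 2 groups, and to 2 to 26. HBD turned direction without KL replicate 2 (0.10, and -0.30 without KL replicate 1). The causes were not tested. Replicate numbers did not pair the libraries (correlations of deviations -0.021 to 0.023 over 10 group pairs), and the replicate block gave 127 calls (123 shared) against sgGal4, 34 against LK, 16 against K and 21 against L. Without read counts, what depth limits cannot be stated.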

Other observations

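Some called genes belong to no list and were chosen after their values were seen. APOC1 and APOE, neighbouring apolipoprotein genes, were both higher in KL than in sgGal4. APOC1 was at 444 and 486 TPM in KL and 169 and 214 in sgGal4 (1.28, adjusted p = 0.000191), with 530 to 682 TPM in the other 6 libraries. APOE was at 123 and 134 TPM against 49.1 and 64.0 (1.18, adjusted p = 0.00295). The nucleosome-binding proteins HMGN1 to HMGN3 were called higher as well, HMGN1 (0.65, adjusted p = 0.0230), HMGN2 (0.67, adjusted p = 0.0209) and HMGN3 (1.43, adjusted p = 0.00991). HMGN3 was at 24.9 and 30.2 TPM in KL and 10.6 and 8.51 in sgGal4. SPN, the leukocyte sialoprotein CD43, was at 165 and 157 TPM against 60.1 and 66.1 (1.34, adjusted p = 0.000658), and DES, the muscle filament desmin, at 40.4 and 40.7 against 9.02 and 10.9 (1.93, adjusted p = 0.00139). On the lower side, TFPI, an inhibitor of the clotting cascade, went from 372 and 309 TPM to 140 and 144 (-1.25, adjusted p = 0.000658). APOC1, SPN, DES and TFPI were called whichever library was left out. The call of APOE was lost without KL replicate 2 (0.0504), that of HMGN3 without KL replicate 2 (0.130), and those of HMGN1 and HMGN2 without sgGal4 replicate 1 (0.106 and 0.0947), KL replicate 1 (0.109 and 0.145) or KL replicate 2 (0.229 and 0.143), HMGN1 also without either LK library (0.0538 and 0.0542).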
